A study of Mus musculus with 4 samples.

Results

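Open chromatin was mapped around 8 genes of 3 vascular receptor systems, namely the sphingosine 1-phosphate receptors S1pr1, S1pr2 and S1pr3 with the kinase Sphk1, the apelin receptor Aplnr with its ligand Apln, and the adrenomedullin receptor subunits Calcrl and Ramp2. Overlapping ATAC-seq peaks of all 4 libraries were merged into 40910 union regions, and each region went to the nearest protein-coding transcription start site (TSS) if one lay within 100 kb. This gave 35 regions for the 8 genes, out of 35041 regions assigned to 15069 genes. The gene set was chosen on the peak calls of these same libraries, for regions called at day 4 (d4) and not at day 2 (d2) near S1pr1 and Aplnr, so the d4 and d2 calls below describe the loci and test nothing. S1pr1 held 11 of the regions, Aplnr 8, S1pr3 7, and S1pr2, Apln and Calcrl 3 each, while Sphk1 and Ramp2 had none.

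The d4 libraries came from a wild-type mouse embryonic stem cell (mESC) line, ES-E14TG2a, taken on day 4 of cardiogenic differentiation after exposure to Activin A (8 ng/ml), BMP4 (0.5 ng/ml) and VEGF (5 ng/ml). The d2 libraries came from the same wild-type line on day 2, grown in the same serum-free differentiation medium before those factors were added. Each day had 2 libraries, replicates 1 and 2, from independent differentiation experiments, and the purpose was to find regulatory elements that open as the endothelial cell (EC) programme starts. In ATAC-seq a transposase cuts accessible DNA, and the deposited data are a peak list for each library. The cultures were unsorted, so more cells with an open site and a more open site in each cell cannot be told apart.

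Sphingosine kinases make sphingosine 1-phosphate, a lipid that circulates in blood and acts through a family of G-protein-coupled receptors, of which S1pr1 is the main receptor of ECs and steadies their junctions. Aplnr is a G-protein-coupled receptor of mesoderm, heart progenitors and ECs that binds the peptides Apln and Apela. Calcrl is a receptor that becomes the adrenomedullin receptor when it pairs with Ramp2, a single-pass membrane protein, and adrenomedullin signalling is needed for blood and lymphatic vessels in mouse embryos.

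A region was called gained if both d4 libraries and neither d2 library had a peak there, lost if the reverse held, and shared if all 4 libraries had a peak. Of the 35 regions, 11 were gained (5 at S1pr1, 3 at Aplnr and 1 each at S1pr2, S1pr3 and Calcrl), 0 were lost, 8 were shared and 16 had another pattern. Over all 35041 regions within 100 kb of a coding TSS, 8.48% were gained, 13.2% were lost and 31.9% were shared. As the genes were picked for gained regions, nothing is read from the difference between their share and these values. By library, d4 replicates 1 and 2 had a peak in 25 and 22 of the 35 regions, and d2 replicates 1 and 2 in 11 and 14. Over the whole genome the order was the reverse, with 22511 and 21299 peaks at d4 and 26865 and 24544 at d2. The choice of the genes for gained regions favours d4 calls, so nothing is read from these counts either.

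**Figure D1:**
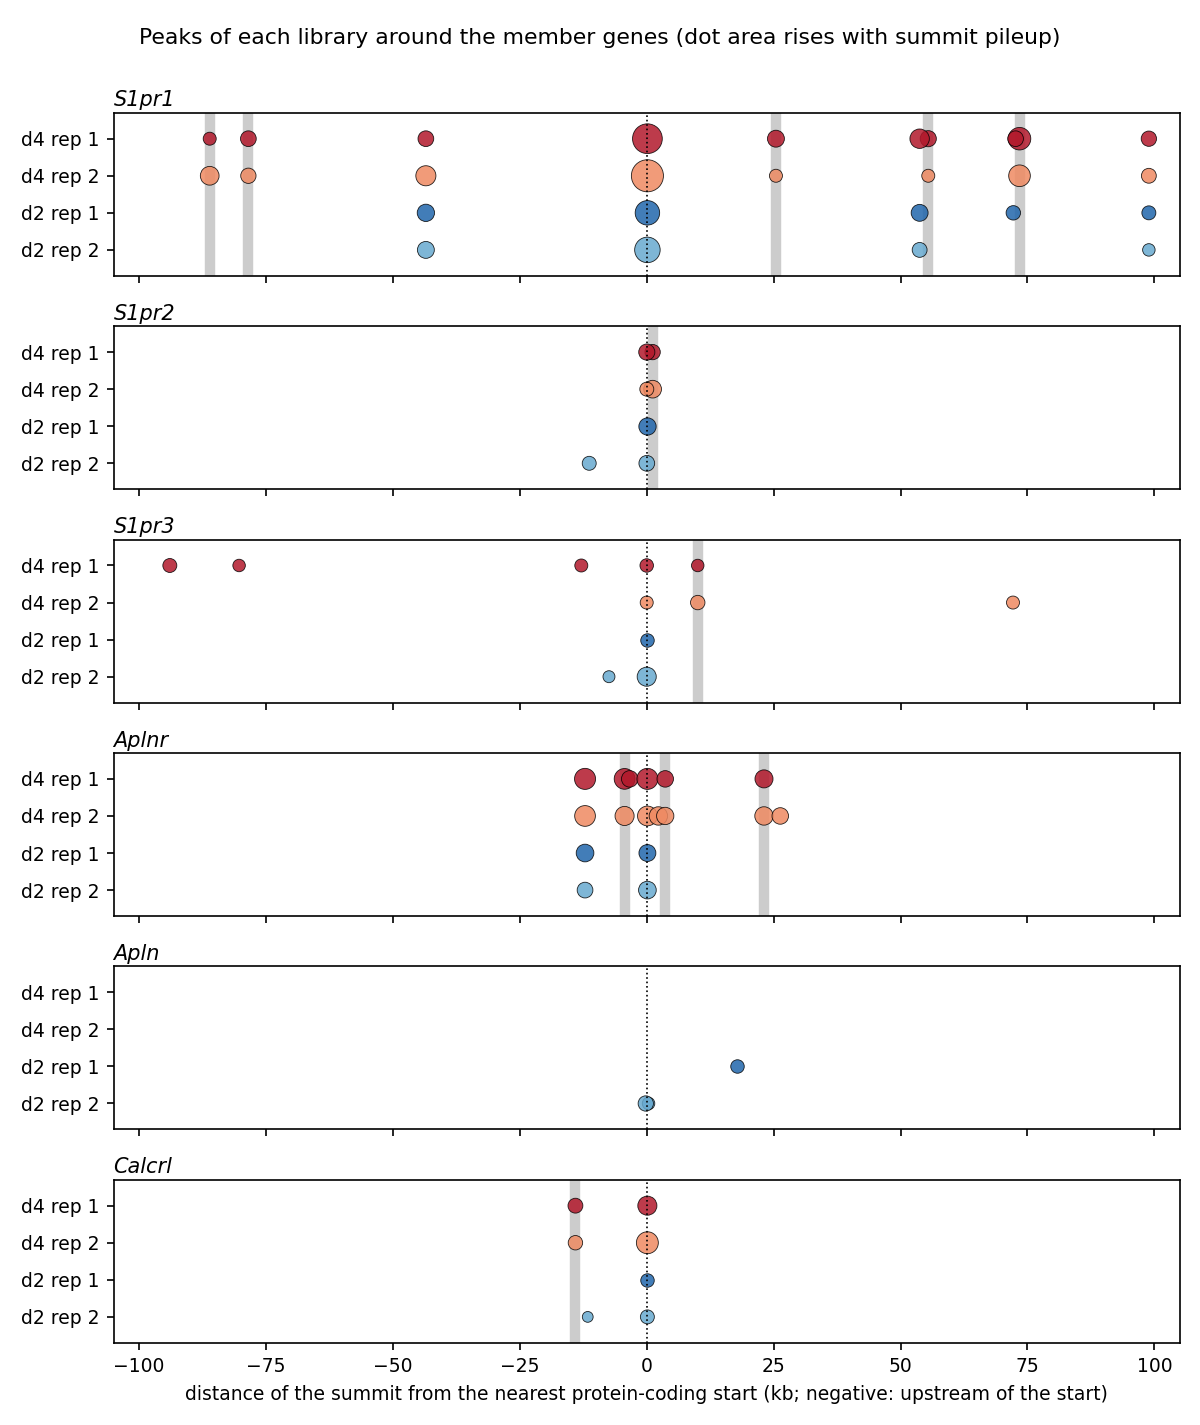
Peaks of each library around the 6 genes with a region. The x axis is the distance of the peak summit from the nearest coding TSS in kb (negative is upstream), each row is a library with d4 above d2, dot area grows with the number of fragments at the summit, and grey bars mark the 11 gained regions. The S1pr1 regions span both sides of the TSS, whereas the gained Aplnr regions sit nearer to theirs and Apln has dots only in the d2 rows.

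The sequences under the gained summits of S1pr1, Aplnr and Calcrl are shown because these sites carry the d4 pattern of their loci, and because none of them falls in a UTR. Each is the mm10 plus strand over 201 bp, centred on the summit of the d4 peak with the higher fold enrichment (the ratio of fragments at the summit to the local background). Capitals mark letters searched for on both strands: GATA (written AGATAA or AGATAG or TGATAA or TGATAG), ETS (CGGAAG or AGGAAG), AP-1 (TGAGTCA or TGACTCA), TEAD (GGAATG), forkhead (GTAAACA or ATAAACA), octamer (ATGCAAAT), KLF (CCACCC) and TCF/LEF (CTTTGAT).
S1pr1, 73.4 kb downstream, chr3:115641533-115641733: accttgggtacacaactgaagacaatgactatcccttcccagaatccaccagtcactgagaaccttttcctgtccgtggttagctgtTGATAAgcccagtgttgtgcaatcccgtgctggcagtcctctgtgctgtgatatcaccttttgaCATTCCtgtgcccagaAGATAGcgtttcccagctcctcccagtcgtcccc
S1pr1, 55.3 kb downstream, chr3:115659505-115659705: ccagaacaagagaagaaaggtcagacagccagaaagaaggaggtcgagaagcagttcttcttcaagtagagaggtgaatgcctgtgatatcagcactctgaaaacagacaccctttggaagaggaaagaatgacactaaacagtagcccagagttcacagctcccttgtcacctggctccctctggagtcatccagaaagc
S1pr1, 25.3 kb downstream, chr3:115689509-115689709: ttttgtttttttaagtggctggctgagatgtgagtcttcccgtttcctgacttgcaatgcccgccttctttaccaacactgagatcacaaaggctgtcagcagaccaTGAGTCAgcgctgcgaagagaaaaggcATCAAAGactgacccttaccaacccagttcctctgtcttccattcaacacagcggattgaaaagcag
S1pr1, 78.4 kb upstream, chr3:115793422-115793622: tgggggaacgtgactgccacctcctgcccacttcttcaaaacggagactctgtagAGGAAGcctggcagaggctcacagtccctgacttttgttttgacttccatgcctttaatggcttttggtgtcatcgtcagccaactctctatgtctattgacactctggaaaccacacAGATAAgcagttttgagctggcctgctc
S1pr1, 86.0 kb upstream, chr3:115801038-115801238: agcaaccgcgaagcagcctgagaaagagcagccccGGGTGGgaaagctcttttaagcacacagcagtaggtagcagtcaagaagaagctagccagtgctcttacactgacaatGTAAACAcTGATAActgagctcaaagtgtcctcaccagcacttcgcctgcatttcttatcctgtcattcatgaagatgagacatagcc
Aplnr, 4.22 kb upstream, chr2:85131774-85131974: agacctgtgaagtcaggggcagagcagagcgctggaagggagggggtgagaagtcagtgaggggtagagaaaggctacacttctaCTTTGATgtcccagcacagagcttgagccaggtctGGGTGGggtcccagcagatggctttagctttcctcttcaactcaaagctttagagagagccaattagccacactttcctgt
Aplnr, 3.55 kb downstream, chr2:85140946-85141146: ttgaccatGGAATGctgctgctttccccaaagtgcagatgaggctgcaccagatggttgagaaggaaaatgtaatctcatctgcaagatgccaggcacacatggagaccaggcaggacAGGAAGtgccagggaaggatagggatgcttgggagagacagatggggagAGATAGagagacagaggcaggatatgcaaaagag
Aplnr, 23.0 kb downstream, chr2:85160402-85160602: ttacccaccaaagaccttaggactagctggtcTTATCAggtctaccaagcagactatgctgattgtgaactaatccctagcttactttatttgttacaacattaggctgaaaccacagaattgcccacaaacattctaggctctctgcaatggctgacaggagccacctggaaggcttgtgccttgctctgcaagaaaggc
Calcrl, 13.9 kb upstream of the internal TSS, chr2:84389290-84389490: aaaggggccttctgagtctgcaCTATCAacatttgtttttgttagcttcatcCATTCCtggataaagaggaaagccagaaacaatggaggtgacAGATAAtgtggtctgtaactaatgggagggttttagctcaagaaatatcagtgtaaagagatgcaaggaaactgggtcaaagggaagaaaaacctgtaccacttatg

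GATA letters, the core recognised by the GATA zinc finger factors of mesoderm and blood vessels, were in 7 of the 11 gained windows (63.6%). They were in 61.9% of all gained regions, 15.3% of all lost regions, 9.71% of all shared regions and 23.1% of all 40910 regions, so the windows of these genes were close to gained regions in general. Away from promoters, GATA letters were in 64.2% of gained, 18.4% of lost and 20.4% of shared regions. Of the 5 S1pr1 windows, 3 held a match, and the one 73.4 kb downstream held 2, TGATAA centred 10 bp before the summit and AGATAG centred 70 bp after it. The Calcrl window also held 2, CTATCA and AGATAA, the second of them centred 4 bp before the summit. Of the 3 Aplnr windows, those 3.55 kb and 23.0 kb downstream held a match and the one 4.22 kb upstream did not. The S1pr2 window held TTATCA centred 20 bp after the summit, and the S1pr3 window held none of these letters.

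The other letters were sparser. ETS letters were in 4 of the 11 gained windows (36.4%), against 40.3% of all gained and 36.6% of all regions. TEAD letters were in 4 (36.4%), at S1pr1 73.4 kb downstream, S1pr2, Aplnr 3.55 kb downstream and Calcrl, against 23.2% of all gained and 12.0% of all regions. TCF/LEF letters were in 2, at S1pr1 25.3 kb downstream and Aplnr 4.22 kb upstream, against 5.00% of all gained and 2.75% of all regions. The window at S1pr1 25.3 kb downstream, which also held the AP-1 letters, is centred on the d4 replicate 1 summit. It does not reach the d4 replicate 2 summit. KLF letters were in 2 (18.2% of all gained and 23.8% of all regions held them), and AP-1 and forkhead letters in 1 each (9.77% and 13.4% of all gained, 4.73% and 5.70% of all regions). Octamer letters were in none, against 0.714% of all gained and 1.89% of all regions. The letters CTG followed after 7 to 9 bases by GATA, a composite of an E-box part and a GATA core that can overlap the GATA letters, were in 1 gained window, S1pr1 73.4 kb downstream, and in 17.8% of all gained and 6.23% of all regions. A match of this kind is a description of the letters and does not show that a factor binds. The gained windows had a median GC content of 50.2%, against 51.2% over all gained and 65.2% over all shared regions.

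S1pr1 lies on the minus strand of chromosome 3 (chr3:115710433-115715072, mm10) and has 1 coding TSS. All 5 of its gained regions were intergenic. The strongest, at chr3:115641486-115641701, lay 73.4 kb downstream of the TSS and had 37 and 34 fragments at the summit in d4 replicates 1 and 2, with fold enrichments of 10.2 and 11.3. Its d4 summits were 7 bp apart and 97.7% of the wider peak was covered by the other. A separate peak lay beside it in d4 replicate 1 only (chr3:115642258-115642441, 17 fragments) and a further one in d2 replicate 1 only (chr3:115642812-115642918, 14 fragments). The summit of this d2 peak was 1.22 kb from the gained summit, so the neighbourhood was not without signal at d2.

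The gained region 55.3 kb downstream of S1pr1 (chr3:115659508-115659733) had 18 and 11 fragments and fold enrichments of 6.91 and 6.00 in d4 replicates 1 and 2. Next to it, chr3:115661161-115661443 was called in d4 replicate 1 with 27 fragments and in d2 replicates 1 and 2 with 20 and 15, but not in d4 replicate 2. This pair of sites thus held 1 site called in both d4 libraries only and 1 called in 3 libraries of both days.

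The region 25.3 kb downstream (chr3:115689526-115689814) had 20 and 11 fragments and fold enrichments of 10.1 and 5.34. The d4 peaks there overlapped by 27 bp, 16.9% of the wider peak, and their summits were 165 bp apart, so they may not be the same site. Upstream of S1pr1, chr3:115793471-115793668 at 78.4 kb had 17 and 16 fragments, with fold enrichments of 6.94 and 7.56. The region at 86.0 kb upstream (chr3:115801057-115801419) had 11 and 25 fragments, with fold enrichments of 6.70 and 11.1, and its summits lay 2 bp apart. Both upstream regions are slightly nearer to the start of the lincRNA Gm9889 (78321 and 85907 bp) than to that of S1pr1, and count for S1pr1 because coding TSSs were used. The S1pr1 sites therefore differed in how alike the d4 libraries were, from near equal at 73.4 kb and 78.4 kb to clearly unequal at 25.3 kb and 86.0 kb.

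A gained region rests on the absence of a peak at d2, and the d2 libraries had less genome-wide background. This coverage relative to d4 replicate 1 was 0.985 in d4 replicate 2, 0.752 in d2 replicate 1 and 0.640 in d2 replicate 2. By the median over shared regions, d2 replicate 2 was instead the highest, with 27 fragments against 25 and 24 in d4 replicates 1 and 2. At the genome-wide background, 6 fragments were enough for a call in either d2 library. With the background of the nearest d2 peak of each library the number was between 6 and 11. All 11 gained regions had summits at or above this number in both d4 libraries, with 1 equal to it (11 fragments in d4 replicate 2 at S1pr1 25.3 kb downstream). After the lower d4 summit was brought to d2 depth by the genome-wide background, 4 of the 11 fell under the number needed in d2 replicate 2: S1pr1 25.3 kb downstream (7.14 against 11), S1pr1 86.0 kb upstream (7.04 against 8), S1pr2 (10.2 against 11) and S1pr3 (6.40 against 9). At these 4 an equally open site at d2 could have gone uncalled, while the other 7, all 3 Aplnr regions and Calcrl among them, stayed at or above it in both d2 libraries. With depth taken from shared regions instead, 1 of the 11 fell under it, S1pr1 25.3 kb downstream in d2 replicate 1. The paper, from tests on reads per region, lists S1pr1 25.3 kb downstream as more accessible at d4. Counts vary, so a missed call is possible at the other regions too, as at S1pr1 55.3 kb downstream (7.14 against 6 in d2 replicate 2). The nearest d2 peak was also up to 42.5 kb away (S1pr1 86.0 kb upstream, d2 replicate 1), so its background may not be that of the site. Narrow peaks can still be missed by the caller, and fragments below a call are not in the lists, so the absence of a peak at d2 is not a count of 0.

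**Figure D2:**
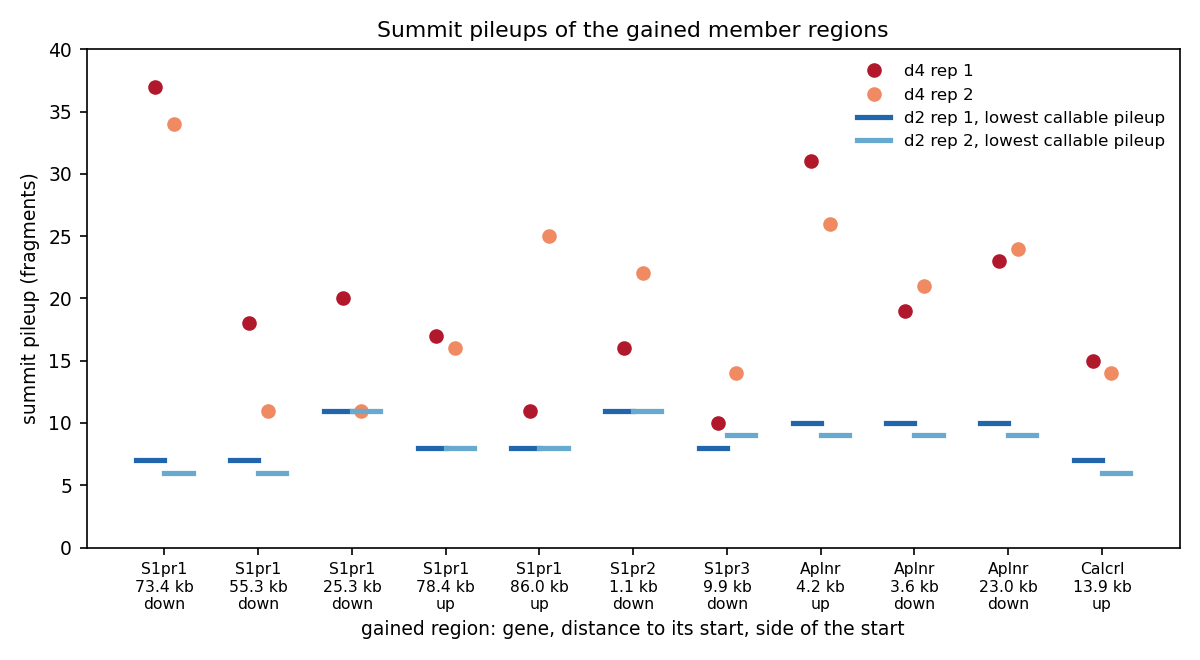
Fragments at the summit of the 11 gained regions. Points are d4 replicates 1 and 2, and bars give the smallest number of fragments that the caller would have accepted in each d2 library at the background of its nearest peak. The points run from 10 to 37 fragments, as counted and not brought to d2 depth, and the bars from 6 to 11.

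The distance limit also shaped the S1pr1 count. Just inside it, the region 98.8 kb downstream (chr3:115615970-115616260) was shared, with 16 and 15 fragments at d4 and 13 and 10 at d2. Just outside it, a region 118.3 kb downstream (chr3:115596531-115596794) was lost, with fold enrichments of 7.93 and 7.13 at d2. Farther out, at 160.5 kb (chr3:115554083-115554534), a region was gained, with fold enrichments of 8.43 and 7.07 at d4. Calcrl had 2 regions outside the limit, at 108.3 and 189.0 kb, both called in d4 replicate 1 only.

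Aplnr lies on the plus strand of chromosome 2 (chr2:85136225-85139923) and has 2 coding TSSs. Its gained regions were nearer to the gene than those of S1pr1. The first, 4.22 kb upstream and intergenic (chr2:85131755-85132001), had 31 and 26 fragments in d4 replicates 1 and 2. The second, 3.55 kb downstream of the nearer TSS and just past the gene's end (chr2:85140943-85141122), had 19 and 21 fragments. The third, 23.0 kb downstream (chr2:85160393-85160828), had 23 and 24 fragments and covers the start of Gm13713, which GENCODE lists as an antisense gene, so that assigning it to Aplnr follows from using coding TSSs only. At all 3 sites the d4 replicates were within 5 fragments of each other.

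Around these sites were 3 regions seen in a single d4 library. One lay 3.23 kb upstream of the Aplnr TSS in d4 replicate 1 (19 fragments), another 2.24 kb downstream in an Aplnr UTR in d4 replicate 2 (24 fragments), and another 26.3 kb downstream in d4 replicate 2 (19 fragments). No Aplnr region was called at d2 without also being called in both d4 libraries.

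Calcrl spans chr2:84330626-84425411 on the minus strand, with 1 TSS at its 5′ end and another inside the gene. Its gained region (chr2:84389289-84389487) lies in an intron, 13.9 kb upstream of the internal TSS, with 15 and 14 fragments and fold enrichments of 8.10 and 7.36 at d4. Its d4 summits were 7 bp apart. A weak peak of 7 fragments in d2 replicate 2 also lay in an intron of Calcrl, 11.5 kb upstream of that TSS, with its summit 2.42 kb from the gained one.

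S1pr2 (chr9:20962361-20976781, minus strand), a receptor that couples to the G12 and G13 class of G proteins, had 1 gained region. It lay 1.09 kb downstream of the TSS in a UTR exon of the gene (chr9:20975461-20975622), with 16 and 22 fragments and fold enrichments of 6.29 and 7.98. S1pr3 (chr13:51408639-51422797, plus strand), a receptor of vascular smooth muscle and ECs, also had 1, 9.89 kb downstream of its TSS, with 10 and 14 fragments and fold enrichments of 5.72 and 8.07. This S1pr3 region (chr13:51418529-51418828) covers an exon of S1pr3 and also the start of the lincRNA Gm32834 on the other strand. It had the fewest fragments of all 11 gained regions in d4 replicate 1, and its d4 peaks overlapped over 38.7% of the wider one.

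Apart from the gained regions and the shared ones over their TSSs, the regions of S1pr2 and S1pr3 were called in 1 library each. S1pr2 had 1, 11.3 kb upstream, in d2 replicate 2 with 13 fragments. S1pr3 had 3 in d4 replicate 1, at 93.8, 80.1 and 12.8 kb upstream with 13, 10 and 11 fragments, 1 in d4 replicate 2 at 72.1 kb downstream with 11 fragments, and 1 in d2 replicate 2 at 7.29 kb upstream with 9 fragments. With so few fragments, the same site can pass in one replicate and fail in the other.

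Apln (chrX:48025146-48034853, minus strand) showed the other pattern, with all 3 of its regions called at d2 and none at d4. The peak 95 bp upstream of the TSS (chrX:48034948-48035129) was in d2 replicate 2 only, with 16 fragments and a fold enrichment of 9.66. Another peak 210 bp downstream of the TSS was also in d2 replicate 2 only, with 10 fragments. The third lay 17.7 kb downstream, in d2 replicate 1 only, with 12 fragments. As the d2 replicates shared none of the 3, no Apln region met the definition of lost, and the receptor and its ligand differed in that Aplnr had a TSS peak in all 4 libraries and Apln in 1.

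Neither Sphk1 (chr11:116530925-116536674), which makes sphingosine 1-phosphate, nor Ramp2 (chr11:101246028-101259546) was the nearest coding gene of any region. The region closest to a Sphk1 TSS lay 26.3 kb away, was nearer to Prpsap1, and was called in d2 replicate 2 only with a fold enrichment of 5.20. For Ramp2 the closest was 6.58 kb away, inside the annotated span of Ramp2 but over a start of Vps25, and had fold enrichments of 5.70 in d4 replicate 1 and 7.12 in d2 replicate 2. A shared region 12.9 kb from a Ramp2 TSS covered the start of Wnk4. The absence of regions for both genes therefore follows in part from which coding TSS was nearest.

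Regions with a peak in all 4 libraries allowed a comparison of signal between the days. For this, the fragments at the summit were divided by the library's median over shared regions (25 and 24 in d4 replicates 1 and 2, 22 and 27 in d2 replicates 1 and 2), which is called the scaled pileup here. With 2 libraries against 2 the smallest exact two-sided permutation p is 0.333, so each difference is given as the mean log2 value at d4 minus that at d2, beside the SD within days (n = 2 per day). The 8 shared regions had a median difference of 0.47, against 0.06 over all 11494 shared regions of the genome. Of the 8, 5 were higher at d4 in both replicates than in either d2 replicate, 1 was lower and 2 overlapped, where 29.7% of all shared regions were higher without overlap and 21.1% were lower.

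On the scaled pileup, the TSS of Calcrl had the largest difference of the 8, whereas relative to the genome-wide background those of the S1pr3 and S1pr2 TSSs were larger in size. The Calcrl region (chr2:84425161-84425479) had 26 and 35 fragments at d4, against 12 and 13 at d2. The scaled pileups were 1.04 and 1.46 at d4 and 0.545 and 0.481 at d2, a log2 difference of 1.26 (SD 0.26), with every d4 value above every d2 value. This difference was larger than that of 99.4% of all shared regions.

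S1pr1 had 3 shared regions. The one over its TSS (chr3:115714673-115715372), which also covers the start of the lincRNA Gm9889 on the other strand, had 66 and 77 fragments at d4 and 44 and 48 at d2, more than any other region of the 8 genes. Its scaled pileups were 2.64 and 3.21 at d4 and 2.00 and 1.78 at d2, a log2 difference of 0.63 (SD 0.16), with no overlap between the days. The region 98.8 kb downstream had scaled pileups of 0.640 and 0.625 at d4 and 0.591 and 0.370 at d2, a difference of 0.44 (SD 0.34) in which the lower d4 and the higher d2 value nearly met. The region 43.4 kb upstream (chr3:115758448-115758874) had 0.680 and 1.21 at d4 and 0.955 and 0.741 at d2, and the days overlapped (difference 0.11, SD 0.45). S1pr1 thus had a TSS peak on both days. The separation of the scaled pileups at this TSS was not seen in the fold enrichments, which overlapped, with 14.9 and 17.8 at d4 and 14.7 and 15.5 at d2. The paper, from tests on reads per region, lists this TSS region as more accessible at d4.

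Aplnr had 2 shared regions. The region 12.0 kb upstream (chr2:85123944-85124180) had 32 and 31 fragments at d4 and 22 and 17 at d2. In scaled pileup it had 1.28 and 1.29 at d4 and 1.00 and 0.630 at d2, a log2 difference of 0.70 (SD 0.33) without overlap. The TSS region (chr2:85136122-85136494) had 32 and 28 fragments at d4 and 20 and 22 at d2, with scaled pileups of 1.28 and 1.17 at d4 and 0.909 and 0.815 at d2, a difference of 0.51 (SD 0.10). For this TSS the direction depended on the measure. Its fold enrichment was 5.67 and 5.26 at d4 and 7.98 and 9.87 at d2, lower at d4 by 0.59 on the log2 scale after scaling to shared regions.

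The TSS regions of the other sphingosine 1-phosphate receptors did not follow S1pr1. At S1pr2 (chr9:20976308-20976998) the scaled pileups were 0.720 and 0.542 at d4 and 0.955 and 0.630 at d2, which overlapped (difference -0.31, SD 0.36). At S1pr3 (chr13:51408558-51409064) they were 0.480 and 0.458 at d4 and 0.545 and 0.963 at d2, lower at d4 without overlap (difference -0.63, SD 0.41), but the d2 replicates were farther apart from each other than d2 replicate 1 was from the d4 libraries.

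**Figure D3:**
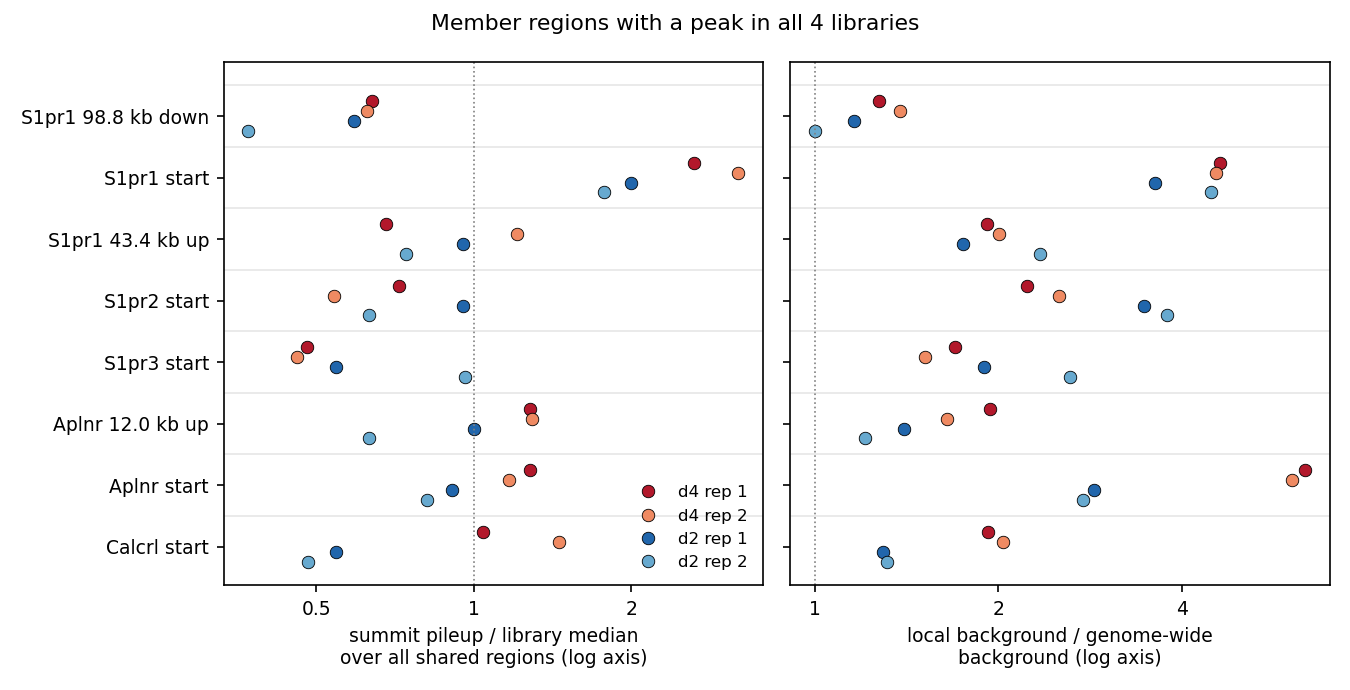
The 8 regions with a peak in all 4 libraries. Left, fragments at the summit divided by the library median over all shared regions; right, local background divided by the genome-wide background of the library; both x axes are logarithmic, each row is a region, and points are single libraries with d4 above d2. The Calcrl TSS stands apart between the days in both panels, and the Aplnr TSS most in the right panel, where d4 is at 6.38 and 6.07 and d2 at 2.87 and 2.76.

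These values depended on what the libraries were scaled to. Dividing fragments by the genome-wide background, which differs between the days (0.755 and 0.744 in d4 replicates 1 and 2, 0.568 and 0.483 in d2 replicates 1 and 2), moved the median of all shared regions to -0.45 and that of the 8 to -0.04. This moves every region by the same amount, so the 8 kept their place relative to the rest, but the sign of single differences changed at S1pr1 43.4 kb upstream (-0.40), S1pr1 98.8 kb downstream (-0.07) and the Aplnr TSS (-0.0035). Under this scaling the S1pr3 TSS was -1.14, the S1pr2 TSS -0.82, Calcrl 0.76, Aplnr 12.0 kb upstream 0.19 and the S1pr1 TSS 0.12.

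The local background of a peak is the coverage that the caller expects from the fragment ends in about 10 kb around the summit, so it also describes how much signal lies near a site outside any single peak. This measure was taken up after the peak values had been seen. Over all shared regions it was lower at d4 relative to the genome-wide background, with a median log2 difference of -0.26, and 9.44% of regions were higher at d4 without overlap and 50.4% lower. Of the 8 shared regions here, 5 were higher without overlap, 2 were lower and 1 overlapped, with a median of 0.25.

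At the Aplnr TSS the local background was 6.38 and 6.07 times the genome-wide background at d4, and 2.87 and 2.76 times at d2. The log2 difference of 1.15 (SD 0.05) was above that of 99.9% of all shared regions. It corresponds to 816 and 753 fragment ends in the window at d4 and 319 and 233 at d2. Within 5 kb of this summit lie 4 other Aplnr regions, 2 of them gained, so the window counts the same fragments as those calls and is no independent measure of them. A local background that is higher at d4 also lowers the d4 fold enrichment of the TSS peak.

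The Calcrl TSS had 1.92 and 2.04 times the genome-wide background at d4 and 1.29 and 1.31 times at d2 (difference 0.60, SD 0.04), with no other region of the 8 genes within 5 kb. Aplnr 12.0 kb upstream had 1.94 and 1.64 times at d4 and 1.40 and 1.21 times at d2 (difference 0.46, SD 0.16). At the S1pr1 TSS the values were 4.63 and 4.55 at d4 and 3.61 and 4.47 at d2, so that one d2 replicate was nearly level with d4 (difference 0.19, SD 0.15). S1pr1 98.8 kb downstream had 1.28 and 1.38 times at d4 and 1.16 and 1.00 times at d2 (difference 0.30, SD 0.12). The TSS regions of S1pr2 (difference -0.61, SD 0.11) and S1pr3 (difference -0.48, SD 0.25) were lower at d4, with 2.23 and 2.52 times at d4 and 3.47 and 3.78 times at d2 for S1pr2. Against the median of -0.26 over all shared regions, the differences of S1pr2 and S1pr3 were below it and those of the other regions above it. With the local background scaled to shared regions instead, the S1pr1 TSS was 0.50, S1pr1 98.8 kb downstream 0.60 and the S1pr3 TSS -0.17.

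Taken by distance, the 11 gained regions lay a median of 23.0 kb from the TSS, with a range of 1.09 to 86.0 kb, close to the 21.3 kb of all 2972 gained regions within 100 kb. All 11189 shared regions had a median of 0, as they mostly cover a TSS. By annotation, 7 of the 11 were intergenic, 1 was intronic, 1 was in a UTR and 2 covered the start of a noncoding gene. Their median width was 226 bp, against 281 bp over all gained regions.

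The wider pathways are given beside the overall shares of 8.48% gained and 13.2% lost regions. The lists include the genes of the set, which was chosen for gained regions, so nothing is read from a list's gained share. Of 25 genes of sphingosine 1-phosphate synthesis, transport, breakdown and signalling, 23 had a region, with 9 gained (11.8%), 8 lost (10.53%) and 22 shared among 76, and 7 of the 9 were those of S1pr1, S1pr2 and S1pr3. The gained ones outside the receptors were at Sgpp1, a sphingosine 1-phosphate phosphatase (30.2 kb upstream, fold enrichments of 9.12 and 9.17 at d4), and at the G protein gene Gna12 (42.6 kb upstream, 7.28 and 8.10), which also had a lost region. Lost regions lay at the phosphatases Sgpp2 (2, one of them over its TSS, with 7.85 and 10.46 at d2) and Plpp3 (2), at the ceramidases Acer1 and Acer2, and at the G protein gene Gnai2. The receptors S1pr4 and S1pr5, which act mainly in blood cells and glia, had neither.

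In the apelin list of 3 genes, Apela, the other peptide that binds Aplnr, had 1 gained region 9.37 kb upstream, with fold enrichments of 6.14 and 7.45 at d4, and 1 shared region. The list thus held 4 gained (30.8%), 0 lost and 3 shared of 13 regions, 3 of the gained ones at Aplnr. As Aplnr was chosen for its gained regions, its presence raises this share. In the adrenomedullin and CGRP list of 11 genes, 4 of 22 regions were gained (18.2%), 2 lost (9.09%) and 6 shared. Besides Calcrl, the gained ones were 3 regions 36.4, 38.5 and 85.6 kb downstream of Ackr3, a scavenging receptor that also takes up adrenomedullin, with fold enrichments between 5.40 and 7.60. The lost ones covered the TSSs of the ligand genes Adm2 (6.28 and 7.93 at d2) and Calca (6.80 and 8.82 at d2). Adm, the adrenomedullin gene, had 2 shared regions and none gained or lost.

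Of 15069 genes, 12 had 5 or more gained regions and 134 had 3 or more. As S1pr1 and Aplnr were chosen for their gained regions, nothing is read from their place among these genes. The counts were also not set against the number of regions per gene. The genes most like S1pr1 in how many regions they had in each of the 15 patterns of library presence were Dlc1, at a summed difference of 3 regions, and Ank3, Frmd4b, Phlda1 and Meis2, at 4 each. For Aplnr they included Tbx20, St3gal1, Fer and Itpr1, at 2 each. Of these, Tbx20 encodes a T-box factor of the heart and had 3 gained, 1 lost and 2 shared among 8 regions, while Dlc1 had 5 gained and 2 shared among 8. Genes at an equal difference were ranked by the lower d4 fold enrichment of their best gained region, so genes not named may be as alike. Likeness was taken over the 4 libraries and gives no link between the genes.

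Marker genes of the cells that the cultures could hold had regions of both classes, to be read beside the 8.48% gained and 13.2% lost over all regions within 100 kb. Of 9 EC marker genes, Kdr, Erg and Fli1 had 1 gained region each and Tek and Fli1 1 lost region each (9.09% of the 33 regions of all 9 gained, 6.06% lost). Cdh5, Pecam1, Tal1 and Etv2 had only regions of neither class, and Tie1 had no region. These classes rest on whether a peak was called, whereas the paper selected elements at Cdh5 and Pecam1 for increased accessibility at d4. Of 6 mesoderm markers, T, Pdgfra and Gata4 had 1 gained region each and Eomes had 2 gained and 1 lost (17.2% of 29 gained, 3.45% lost). Of 6 pluripotency markers, Pou5f1, Zfp42 and Esrrb had 1 lost region each, Klf4 had 1 gained and 2 lost, and Nanog had 1 gained (7.69% of 26 gained, 19.2% lost). Neural markers had 1 gained and 4 lost, endoderm markers 1 and 4, and blood markers 2 of each, all at Runx1, while Gata1, Hbb-bh1 and Afp had no region. The labels call the cells of both days mESCs, and the part of mixed cell types in the receptor gene values was not tested. The peak lists held 22511 and 21299 peaks at d4 and 26865 and 24544 at d2.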

How the data were processed

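ATAC-seq peak lists of 4 libraries were used, 2 from d4 and 2 from d2, grouped by their labels. According to the study's methods, the authors trimmed adapters (cutadapt), mapped read pairs to mm10 (Bowtie2), kept uniquely placed nuclear reads without duplicates, called peaks library by library with MACS2 and dropped blacklisted regions. The deposited fold enrichment is a ratio of fragments at the summit to local background, each plus 1, and the deposited −log10 values are Poisson p and corrected q (lowest −log10 q 3.00 to 3.02). The deposited score repeats the −log10 q and was not used.

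Fragments at the summit and local background were solved from the fold enrichment and p, which gave whole fragments in 100% of peaks (within 0.01 in −log10 p). The background steps (checked within 0.05 steps) fit a 10 kb window and paired-end calling. The least called was 7 fragments at d4 and 6 at d2, so weak peaks carry a large counting error. Peaks overlapping by 1 bp were merged and assigned to GENCODE M21 protein-coding TSSs with Python 3.11.15, pandas 2.3.3 and pysam 0.24.0, and a promoter lay within 1000 bp of any TSS. Coordinates are 1-based mm10. The scripts were checked on made-up peaks with known answers.

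The study's count tests need reads per region and were not run here. The paper reports such tests, and lists regions mapped to S1pr1, Aplnr and Calcrl among those more accessible at d4. Its list for EC marker genes includes the TSS regions of S1pr1 and Calcrl, S1pr1 25.3 kb downstream and Aplnr 12.0 kb upstream. The Aplnr TSS region is not on it. The paper also reports higher RNA levels of S1pr1, Aplnr and Calcrl at d4. The 8 genes, the lists and the letters searched were chosen with earlier results of these data known. All 8 genes were named, with list genes that had a gained or lost region and up to 5 genes most alike, of which 1 is not reported here; other names were added after their values were seen. Alternatives were other overlap, q, distance, TSS, scaling and window rules, and leaving out each library.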

Additional observations from a re-analysis of the deposited data

How the results depend on the processing

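Gained regions of the 8 genes numbered 11 as reported, against 3 at a −log10 q of at least 10, 5 with the top 15000 peaks of each library, and 7 with either a 50 kb limit or the TSSs of every transcript type. The q rule also left 22 regions in all and 4 shared ones, and the top 15000 peaks left 4 shared. By gene, a 50% reciprocal overlap left S1pr1 with 3 gained regions and S1pr3 with 0, a 50 kb limit left S1pr1 with 1, TSSs of every type left S1pr1 with 3 and S1pr3 with 0, and the q rule left S1pr1 with 1 and S1pr2, S1pr3 and Calcrl with 0. Lost regions were 0, but 1 with no distance limit and between 0 and 5 when a library was left out (5 without d2 replicate 1). Leaving out a library gave 11 to 16 gained regions, with 16 without d4 replicate 2. The median scaled difference of the shared regions was 0.47, and it was -0.0389 with the genome-wide background and 0.0691 with fold enrichment; leaving out a library gave 0.23 to 0.65, with 0.23 without d2 replicate 2. The median local background difference was 0.55 when scaled to shared regions, an alternative chosen after seeing the data, and 0.22 to 0.27 with a library left out. GATA letters were in 4 gained windows at 50 bp to each side of the summit and in 9 at 150 bp. For single genes, regions and motifs, each taken once per alternative, 37 values moved and 161 did not. A count moved if it changed by more than a set ratio, and a difference if it shifted by more than its SD within days. A small difference with a large SD could thus change sign without moving. The values that did not move include the region counts of Sphk1 and Ramp2, which were 0 throughout. The cause of these changes was not tested beyond the narrower rule itself. No paired analysis was possible because the results come from no test. Depth limits every absence of a peak: 6 fragments is the least that either d2 library could call.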
